A study of Mus musculus with 36 samples.

Results

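A set of classical interferon-stimulated genes, Isg15, Usp18, Ifit1, Ifit2, Ifit3, Rsad2, Oasl2, Bst2 and Irf7, were followed in mouse liver across genotypes of the liver X receptor alpha (LXRalpha) and across diets. They were picked by gene symbol, 9 of the 49315 genes in the expression table, and all 9 passed the filter on low values that left 16638 genes for testing. Livers came from 36 male mice aged 11 to 12 weeks, 4 in each of 9 groups. LXRalpha, a nuclear receptor for oxidised cholesterol, had been altered by CRISPR so that phenylalanine replaced tryptophan at residue 441. W/W mice are homozygous controls, W/F mice heterozygous mutants and F/F mice homozygous mutants. The mutation is in the germ line of the whole animal, not in 1 liver cell type, and the labels do not say how many founder lines were used. For each genotype, 1 group ate normal chow, and 2 groups ate a high fat, high cholesterol diet (Teklad TD.96121) that promotes MASH, a steatohepatitis, for 4 weeks. In the last 2 of those weeks 1 of these groups received T0901317, a synthetic LXR agonist, at 10 mg/kg daily by gavage, and the other received vehicle. The chow mice were an independent cohort without gavage, so diet, gavage and cohort cannot be told apart in any comparison with chow. The labels list 4 livers per group without saying whether litters or days were shared.

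Interferons are cytokines that alert cells to infection. Type I interferon binds the receptor pair Ifnar1 and Ifnar2, the kinases Jak1 and Tyk2 pass the signal on by phosphorylation, and a complex that holds Stat2 and Irf9 binds the interferon-stimulated response element in front of target genes. Interferon-gamma acts through Ifngr1 and Ifngr2 and turns on a partly shared set of genes. In liver, hepatocytes, Kupffer cells (resident macrophages), recruited monocytes, endothelial cells and plasmacytoid dendritic cells can all take part, as producers or responders. Among the 9 genes, Isg15 encodes a ubiquitin-like modifier and Usp18 the protease that removes it and also damps signalling at the type I receptor. Ifit1, Ifit2 and Ifit3 encode RNA-binding or RNA-complex proteins that restrain translation of foreign RNA. Rsad2 encodes viperin, an antiviral radical enzyme found at the endoplasmic reticulum and lipid droplets, Oasl2 an oligoadenylate synthetase-like protein, and Bst2 tetherin, a membrane protein that holds budding virus at the cell surface. Irf7 encodes a transcription factor that amplifies type I interferon production.

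The genes lie at 7 places in the genome (GRCm38): Isg15 at chr4:156199424-156200818, Usp18 at chr6:121245906-121270917, Irf7 at chr7:141262706-141266481, Bst2 at chr8:71534255-71537456, Oasl2 at chr5:114896936-114912234 and Rsad2 at chr12:26442746-26456452. Ifit2 (chr19:34550694-34576419), Ifit3 (chr19:34583531-34588731) and Ifit1 (chr19:34640871-34650009) are neighbours in 1 cluster. All are protein-coding, and expression was summed over exons of each gene. Promoters from RefSeq (GRCm38.p6), 250 bases before to 50 bases after the annotated start, were matched for 8 of the 9 genes, with 2 for Ifit2; Usp18 was not matched. The core of the interferon-stimulated response element, searched on both strands as the letters GAAA, any 2 bases and GAAA with overlapping matches allowed, was found in 5 of the 8 genes, and 4 had at least 2 matches. Of all 32851 promoters of that length, 3.44% held at least 1 match and 0.225% held 2 or more. The stretches of 70 bases around the matches are printed below, 5′ to 3′ on the strand of the gene and with the matches in capitals, because they show how the shared element sits in Isg15, where 3 matches overlap, and in Bst2, whose expression went a different way from the rest. TTTC, any 2 bases and TTTC is the element on the other strand.
Isg15, chr4:156200850-156200919, minus strand: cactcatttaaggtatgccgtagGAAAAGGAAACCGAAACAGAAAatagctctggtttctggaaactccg
Ifit1, chr19:34640769-34640838, plus strand: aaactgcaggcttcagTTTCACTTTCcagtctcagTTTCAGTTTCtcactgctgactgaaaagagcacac
Ifit3, chr19:34583372-34583441, plus strand: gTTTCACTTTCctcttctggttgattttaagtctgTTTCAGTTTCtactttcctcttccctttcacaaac
Rsad2, chr12:26456538-26456607, minus strand: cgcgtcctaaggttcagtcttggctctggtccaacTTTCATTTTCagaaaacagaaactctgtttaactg
Bst2, chr8:71537562-71537631, minus strand: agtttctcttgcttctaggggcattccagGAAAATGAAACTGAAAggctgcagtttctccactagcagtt
The first match began 78 bases before the start in Isg15, 104 in Ifit1, 156 in Ifit3, 120 in Rsad2 and 130 in Bst2. No match to these letters was found in the windows of Ifit2, Irf7 or Oasl2. A match is a description of the sequence, and binding was not measured.

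Expression was deposited as TPM (transcripts per 1000000, a level corrected for gene length and library total), and low values, which come in steps of 1 read, gave a depth of 18.07 to 35.82 M reads per library (M, 1000000). Recovered reads for a member ranged from 42 for Ifit2 and 50 for Oasl2 in their lowest libraries to 7712 for Bst2 in its highest. Tests used limma on log2(TPM + 1) with Benjamini-Hochberg adjustment over all 16638 genes, and "called" means an adjusted p under 0.05. Fold changes on this scale understate the change of low genes. SE and p-values rest on a spread between livers pooled over all 9 groups, not only the groups compared. The median gene differed by 0.70 on the log2 scale between F/F and W/W on vehicle, by 0.52 between W/F and W/W on vehicle, by 0.43 between F/F and W/W with T0901317, and by -0.49 with T0901317 in W/F. TPM sum to a constant, so a difference is relative to the rest of the library, and what moved the median was not tested. Counts of members called are also given after rescaling every library to its median gene ("rescaled"), which brought these medians to between -0.04 and 0.03. Nr1h3, the usual symbol of LXRalpha, had 79.1 to 124 TPM in all 36 libraries, which does not check a change of 1 residue. In Ifit3, 51.2% of all 50-base stretches also occur in its copy Ifit3b, so its reads could be split between them, and its level is uncertain. Irf7 overlaps the antisense gene Phrf1 over 1.19% of its exons and Usp18 overlaps Gm44148 over 4.44%, and whether reads were counted by strand is not given in the sources used here.

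Libraries that stood apart come first, because several results rest on them. F/F vehicle replicate 2 had the highest value of its group in 9 of 9 genes, with a median of 2.12 times the median of its 3 group mates. W/F T0901317 replicate 2 was likewise highest in 9 of 9, at a median of 3.16 times its group mates, with Ifit2 at the top at 6.30 times. F/F T0901317 replicate 1 was also highest in 9 of 9, at a median of 1.65 times. The first 2 libraries are described further with genes named after their values were seen. In W/F T0901317 replicate 2, interferon-gamma (Ifng) stood at 4.78 TPM, or 67 recovered reads, against 0, 0.359 and 0 TPM in its group mates. The chemokine Cxcl9, a gene induced by interferon-gamma, stood at 114 TPM there against 3.94 to 10.9 TPM, and all 30 tested genes of a list of interferon-gamma-linked genes were highest of the 4, by a median of 5.06 times. In F/F vehicle replicate 2, Ifng stood at 0.0954 TPM and Cxcl9 at 14.4 TPM against 6.77 to 7.99 TPM. Of the interferon-gamma list, 24 of 30 genes were highest of the 4 there, and the list was up by a median of 1.31 times. For 49 other genes induced by type I interferon the medians were 2.08 times in W/F T0901317 replicate 2 and 1.55 times in F/F vehicle replicate 2, with 47 of 49 highest of the 4 in each. In F/F T0901317 replicate 1 the interferon-gamma list had a median of 1.60 times, with 27 of 30 highest. The type I genes had a median of 1.36 times there, with 38 of 49 highest. Other groups also held a high mouse. In W/W vehicle replicate 4, 28 of 30 interferon-gamma-linked genes were highest of the 4, at a median of 1.48 times. There 35 of 49 type I genes (1.21 times) and 7 of 9 members were also highest. In W/W chow replicate 4 the interferon-gamma count was 26 of 30, at 1.33 times, so that list does not set F/F vehicle replicate 2 apart. W/F vehicle replicate 2 was highest in 8 of 9 members, at a median of 1.28 times. The summed TPM of the T and NK cell markers was 24.7 in W/F T0901317 replicate 2 against 3.23 to 4.77 in its group mates, that of the monocyte and macrophage markers 840 against 95.7 to 127, and that of the neutrophil markers 18.5 against 4.98 to 7.88. Its Kupffer cell markers summed to 593 against 110 to 216. The B cell, plasmacytoid dendritic cell, stellate and endothelial sums were also the highest of the 4. Its hepatocyte sum was the lowest, at 55459 against 73811 to 80825. In F/F vehicle replicate 2 the monocyte and macrophage markers summed to 3720, inside the group's range of 3143 to 4092, while the neutrophil markers, at 443 against 150 to 318, and the T and NK cell markers, at 14.2 against 9.40 to 12.8, were the highest of the 4. There the hepatocyte, Kupffer cell and plasmacytoid dendritic cell sums were the lowest of the 4, and the B cell, stellate and endothelial sums lay inside the range. The part of these cells in the interferon-stimulated values was not tested.

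**Figure D1:**
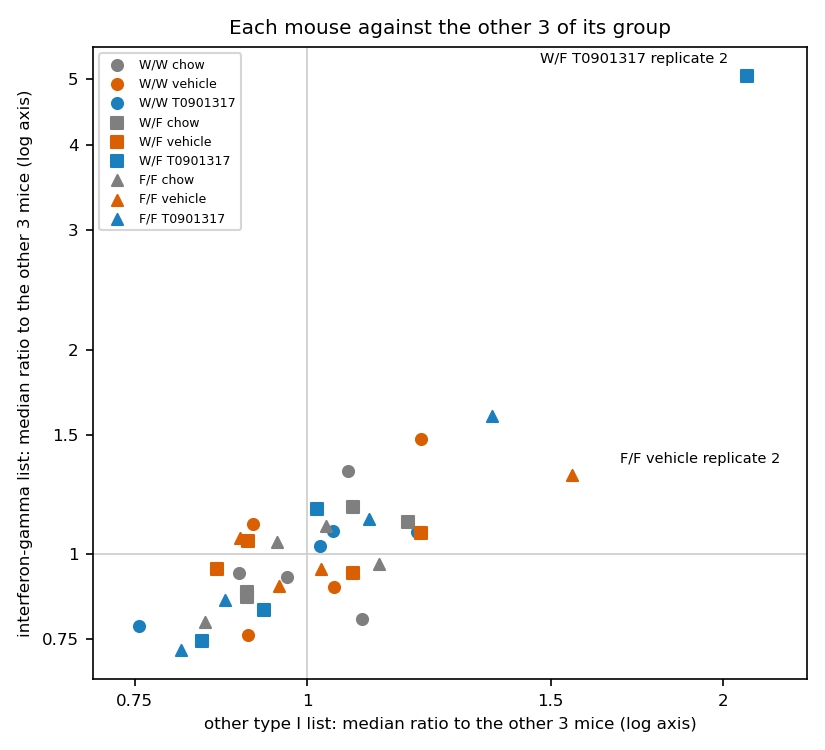
Each point is 1 mouse, placed by its median ratio to the other 3 mice of its group over 49 other type I interferon-stimulated genes (x, log axis) and over 30 interferon-gamma-linked genes (y, log axis). Shape gives the genotype and colour the treatment. W/F T0901317 replicate 2 lies at 2.08 and 5.06, far up the y axis, and F/F vehicle replicate 2 at 1.55 and 1.31, mainly to the right.

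On vehicle, 8 of the 9 genes were higher in F/F than in W/W livers, from 3.66-fold for Ifit3 to 7.08-fold for Oasl2, and Bst2 was the exception. Isg15 had 12.8, 15.8, 13.9 and 17.7 TPM in the W/W mice and 62.4, 159, 73.8 and 65.4 TPM in the F/F mice, with 40.4, 43.9, 33.8 and 41.3 TPM in W/F mice. The 3 genotypes did not overlap: every heterozygote lay above every control and below every homozygote. The fitted difference was 2.40 ± 0.30 for F/F against W/W (log2, SE from the pooled spread, n = 4 per group). It was 1.35 ± 0.30 for W/F against W/W, and the adjusted p were 1.6e-08 and 1.8e-04 in that order (limma). Usp18, the protease that reverses Isg15 conjugation, had 6.25, 6.60, 7.33 and 8.94 TPM in W/W, 18.7, 30.7, 23.0 and 20.2 TPM in W/F and 35.5, 53.4, 39.9 and 39.3 TPM in F/F. It showed the same order of genotypes without overlap, and F/F exceeded W/W by 2.37 ± 0.24 (adjusted p = 3.44e-10). In rescaled values Isg15 was higher in F/F by 1.56 and Usp18 by 1.56, and both stayed called in W/F, by 0.72 and 0.92.

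The effector genes followed. Oasl2 was at 2.02, 1.81, 1.93 and 1.93 TPM in W/W, 11.2, 14.96, 11.7 and 9.42 TPM in W/F, and 17.2, 37.8, 13.3 and 17.1 TPM in F/F. The W/W mice were nearly alike and far below both mutants, whereas 1 F/F mouse, at 13.3 TPM, lay inside the W/F range. Oasl2 had the largest fitted differences of the 9 genes, 2.82 ± 0.34 in F/F and 2.12 ± 0.34 in W/F (adjusted p = 1.21e-08 and 3.05e-06). Ifit2 was at 2.05, 2.09, 1.74 and 2.70 TPM in W/W, 7.25, 13.4, 10.3 and 6.93 TPM in W/F and 11.2, 26.0, 12.2 and 13.5 TPM in F/F, again with both mutants above all controls. Rsad2 was at 2.05, 3.11, 3.61 and 4.45 TPM in W/W, 6.81, 13.8, 13.5 and 11.7 TPM in W/F and 13.1, 32.0, 17.9 and 18.3 TPM in F/F, where the mutant groups overlapped each other but not the controls. Ifit1 rose from 5.56 ± 2.02 TPM (SD, n = 4) in W/W to 24.4 ± 10.6 TPM in F/F, and Ifit3 from 13.6 ± 3.96 to 54.0 ± 23.7 TPM. The differences were 1.92 ± 0.31 and 1.87 ± 0.31 on the log2 scale (adjusted p = 1.94e-06 and 2.64e-06). In W/F both were higher than W/W by 0.94 and 0.96, and after rescaling neither was called there (0.36, adjusted p = 0.308, and 0.33, adjusted p = 0.344).

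Irf7, the transcription factor of the set, was at 19.2, 17.1, 14.5 and 16.0 TPM in W/W, 39.1, 50.9, 40.9 and 44.0 TPM in W/F and 46.4, 136, 54.8 and 51.2 TPM in F/F. All mutants lay above all controls, and the replicate at 136 TPM made the F/F spread wide. The difference was 1.91 ± 0.28 for F/F (adjusted p = 3.88e-07) and 1.34 ± 0.28 for W/F (adjusted p = 1.06e-04).

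Bst2, the most abundant of the 9 genes, did not follow. It was at 406, 400.4, 422 and 443 TPM in W/W, 432, 370.4, 322 and 382 TPM in W/F and 338, 599, 329 and 306 TPM in F/F. The genotypes overlapped, and without replicate 2 the F/F mice were all below the W/W mice. As deposited, the difference was -0.14 ± 0.21 for F/F against W/W (adjusted p = 0.552, 95% interval -0.58 to 0.30). Relative to the median gene it was lower, by -1.01 in F/F (0.497-fold, adjusted p = 2.6e-05) and by -0.82 in W/F (adjusted p = 4.32e-04), so that whether Bst2 is called depends on the scaling, while the difference was below 0 in both.

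The background matters for these counts. As deposited, 69.3% of all genes tested were called higher in F/F than in W/W on vehicle, and 61.6% in W/F, and the 8 of 9 members called higher in each case are read against those shares. The groups did not overlap for the same 8 members, against 64.4% of all genes in F/F and 54.8% in W/F. After rescaling, 31.0% of all genes were called higher in F/F, and 8 of 9 members were, with the ninth, Bst2, among the 28.1% called lower. In W/F the rescaled counts were 6 members higher, against 27.6% of all genes, and 1 lower, against 25.5%. The median member differed by 2.27 in F/F where the median gene differed by 0.70, and by 1.51 against 0.03 after rescaling. In W/F the medians were 1.35 against 0.52, and 0.72 against 0.02. Without F/F vehicle replicate 2 the same number of members, 8, was called in F/F. F/F exceeded W/F on vehicle for 4 members (Isg15 by 1.05, Ifit1 by 0.98, Ifit3 by 0.91 and Usp18 by 0.84) against 19.0% of all genes, for 2 after rescaling against 5.74%, and for none without F/F vehicle replicate 2. Shares of all genes called without that mouse were not counted.

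**Figure D2:**
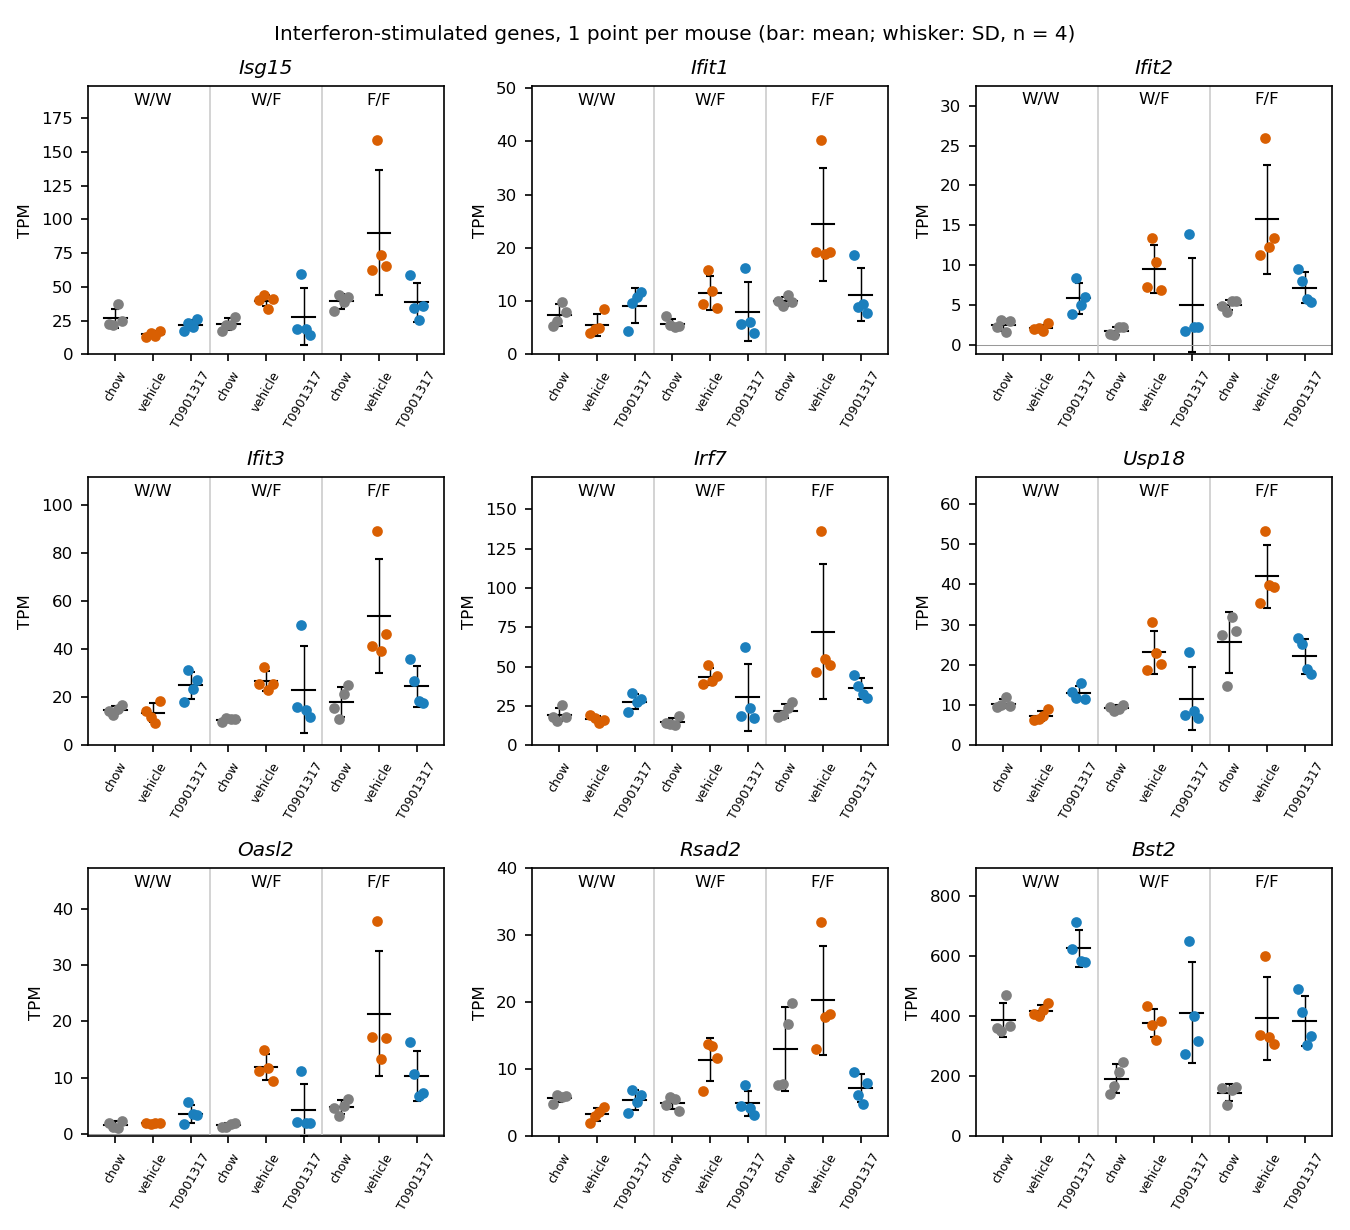
TPM of each gene (y, linear axis, own scale per panel) in each mouse, by genotype and by treatment: chow in grey, vehicle in orange and T0901317 in blue. Points are mice, the bar is the group mean and the whisker 1 SD, n = 4. Vehicle mice rise from W/W to F/F in every panel except that of Bst2, and 1 high mouse stands out in F/F vehicle and in W/F T0901317.

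On chow, without the diet, fewer members differed by genotype. Usp18 was at 9.48, 10.2, 12.0 and 9.76 TPM in W/W and 27.5, 14.7, 32.0 and 28.3 TPM in F/F, a difference of 1.18 ± 0.24 (2.27-fold, adjusted p = 2.28e-04). Oasl2, at 1.92, 1.28, 1.07 and 2.38 TPM in W/W and 4.68, 3.13, 5.04 and 6.19 TPM in F/F, was higher by 1.11 ± 0.34 (adjusted p = 0.00896). Rsad2, at 4.79, 6.12, 5.91 and 6.05 TPM in W/W and 7.66, 7.86, 16.8 and 19.8 TPM in F/F, was higher by 0.96 ± 0.28 (adjusted p = 0.00621). In all 3 genes the F/F and W/W chow mice did not overlap, as for 35.1% of all genes, with F/F replicates 3 and 4 well above replicates 1 and 2 for Rsad2. These 3 of 9 members compare with 43.0% of all genes called higher, and 2, Usp18 by 0.82 and Oasl2 by 0.83, stayed called after rescaling, against 15.9%. Isg15, Ifit1, Ifit2, Ifit3 and Irf7 were not called between F/F and W/W on chow, with differences of 0.17 to 0.80, although the groups did not overlap for Ifit2.

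Bst2 went the opposite way on chow. It was at 362, 349.9, 470.05 and 368 TPM in W/W, 140.02, 166, 215 and 248 TPM in W/F and 160.3, 104, 156 and 163 TPM in F/F. Both mutants lay below every W/W mouse, and they overlapped each other as deposited. The difference was -1.42 ± 0.21 for F/F against W/W (0.374-fold, adjusted p = 5.7e-06) and -1.03 ± 0.21 for W/F against W/W (0.489-fold, adjusted p = 0.013). Rescaled values were -1.80 and -1.06, so this direction held in both scalings, with 3.65% and 0.288% of all genes called lower as deposited in the 2 comparisons. In W/F on chow Bst2 was the only 1 of the 9 called, and it was not called when W/W chow replicate 3, W/F chow replicate 1 or W/F chow replicate 2 was left out, or when only those 8 libraries were fitted. Against W/F, F/F chow mice had 5 members higher (Isg15, Ifit2, Usp18, Oasl2 and Rsad2, by 0.80 to 1.32), against 37.9% of all genes, and 4 after rescaling, against 16.5%. Bst2 was lower in F/F than in W/F after rescaling, by -0.74 and without overlap (adjusted p = 0.00289, limma), against 14.7% of all genes called lower, and as deposited it was not called (-0.39).

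The MASH diet with vehicle, set against chow, went with higher levels of the members in both mutants and not in W/W. In W/W mice none of the 9 was called by limma (2 had an unadjusted p under 0.05), where 2.59% of all genes were called higher and 10.3% lower, and none was after rescaling (2 had an unadjusted p under 0.05), against 6.98% and 8.44%. Isg15 was at 22.4, 22.1, 37.1 and 24.8 TPM on chow in W/W and at 12.8 to 17.7 TPM on vehicle, the vehicle mice all below the chow mice. Its difference was -0.76 (adjusted p = 0.0881), and the groups also did not overlap for Usp18, at -0.46 (adjusted p = 0.227), and Rsad2, at -0.67 (adjusted p = 0.118), against 12.0% of all genes without overlap in that direction. In W/F mice all 9 members were higher on the diet than on chow, without overlap, where 52.4% of all genes were called higher and 45.8% did not overlap. Oasl2 led, from 1.20, 1.31, 1.80 and 1.96 TPM on chow to 9.42 to 14.96 TPM, a difference of 2.31 ± 0.34 (4.97-fold, adjusted p = 9.05e-07). After rescaling 6 of 9 remained called in W/F against 27.9% of all genes: Ifit2, Ifit3, Irf7, Usp18, Oasl2 and Bst2. In F/F mice 8 of 9 were called against 46.5% of all genes, all but Rsad2 (0.64, adjusted p = 0.0502), and 7 after rescaling against 25.7%. Bst2 rose in F/F from 104 to 163 TPM on chow to 306 to 599 TPM, by 1.39 ± 0.21 (2.63-fold, adjusted p = 2.66e-06), and by 1.04 after rescaling. As deposited, Bst2 of the mutants, below W/W on chow, overlapped the W/W vehicle mice on the diet, in each mutant through 1 mouse. These were F/F vehicle replicate 2, at 599 TPM, and W/F vehicle replicate 1, at 432 TPM. After rescaling, Bst2 of both mutants was below that of every W/W vehicle mouse.

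The diet response itself was compared between genotypes as a difference of differences. All 9 members responded more in W/F than in W/W, by 0.87 for Bst2 to 2.15 for Oasl2, and more in F/F than in W/W, by 1.19 for Usp18 to 1.83 for Isg15. Of all genes 49.5% and 41.5% were called in that direction, and after rescaling 6 and 5 members were, against 21.0% and 14.5% of all genes. The comparisons in W/F and F/F share the W/W mice.

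With T0901317 against vehicle, members called as deposited were higher in W/W and lower in W/F and F/F, and Bst2 was called in none of the 3. In W/W livers all 9 fitted differences were above 0, from 0.51 for Isg15 to 1.08 for Ifit2, and 2 were called, against 7.87% of all genes called higher. Ifit2 rose from 1.74 to 2.70 TPM on vehicle to 3.89, 8.43, 4.96 and 5.97 TPM with T0901317 (1.08 ± 0.34, adjusted p = 0.0353). Usp18 rose from 6.25 to 8.94 TPM to 13.3, 11.9, 15.4 and 11.6 TPM (0.76 ± 0.24, adjusted p = 0.0357). Isg15, Irf7 and Bst2 also had no overlap between W/W groups without being called, so 5 of 9 did not overlap, against 12.1% of all genes. Bst2 moved from 400.4 to 443 TPM on vehicle to 622, 714, 584 and 581 TPM, a difference of 0.58 (adjusted p = 0.0851). After rescaling Ifit2 and Usp18 were again the 2 called, where 13.5% of all genes were called in either direction, but leaving out any of 5 single W/W libraries (T0901317 replicate 2 or 3, or vehicle replicate 1, 2 or 3) left none called, and leaving out T0901317 replicate 1 or 4 left 1.

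In F/F livers 8 of 9 members were lower with T0901317 than on vehicle, against 31.2% of all genes called lower. Isg15 was at 62.4, 159, 73.8 and 65.4 TPM on vehicle and 58.6, 34.5, 25.2 and 35.6 TPM with T0901317, every treated mouse below every vehicle mouse, by -1.16 ± 0.30 (adjusted p = 0.00379). Rsad2 fell most, from 13.1, 32.0, 17.9 and 18.3 TPM to 9.68, 6.20, 4.87 and 7.94 TPM, by -1.35 ± 0.28 (0.393-fold, adjusted p = 6.94e-04). Usp18 fell from 35.5, 53.4, 39.9 and 39.3 TPM to 26.7, 25.1, 19.0 and 17.9 TPM, by -0.90 ± 0.24 (adjusted p = 0.00538). For 7 of the 9 the groups did not overlap, against 29.2% of all genes. Oasl2 overlapped through T0901317 replicate 1, at 16.4 TPM, and Bst2 was not called, at -0.00 (adjusted p = 0.998, 95% interval -0.44 to 0.44). The rescaled call held for 4 members, Isg15 (-0.89), Ifit3 (-0.81), Usp18 (-0.63) and Rsad2 (-1.08), against 7.98% of all genes. Without F/F vehicle replicate 2, 3 members were called as deposited, Isg15 at -0.85, Usp18 at -0.78 and Rsad2 at -1.11, while the other 5 lay between -0.81 and -0.49. With that library left out and values rescaled, 1 member was called, so the number of members that fell in F/F rests in large part on that mouse. The share of all genes called without it was not counted.

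In W/F livers T0901317 gave 6 of 9 members lower, against 59.3% of all genes called lower, so the count is at the background. After rescaling 2 were lower, Usp18 by -0.52 and Oasl2 by -1.09, against 27.1%, and Bst2 was higher by 0.66, against 23.6%. Every member overlapped between the W/F groups as deposited, where 51.6% of all genes did not overlap and were lower: replicate 2 stood with or above the vehicle mice while replicates 1, 3 and 4 lay below or near them. Oasl2 was at 11.2, 14.96, 11.7 and 9.42 TPM on vehicle and 2.07, 11.1, 1.94 and 1.88 TPM with T0901317. Irf7 was at 39.1 to 50.9 TPM on vehicle and 19.0, 62.2, 23.7 and 17.5 TPM with T0901317. Without W/F T0901317 replicate 2, 8 of 9 were called lower, Oasl2 by -2.10, Ifit2 by -1.75, Usp18 by -1.46 and Isg15 by -1.15 among them, and Bst2 was not (-0.20). The share of all genes called lower without that mouse was not counted, so this count cannot be read against a background. With all 4 mice kept, 8 of 9 members were not called between W/F and W/W with T0901317. Bst2 was lower in W/F, by -0.68 (adjusted p = 0.0389), against 6.23% of all genes, and after rescaling by -0.67, again the 1 member called, against 8.28%. As deposited it was not called when any of 7 of the 8 libraries of these groups, all but W/F replicate 2, was left out.

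The difference between the responses was tested directly. The T0901317 response of 8 members was lower in F/F than in W/W, by -1.53 for Irf7 to -2.07 for Ifit2, against 27.2% of all genes, and of 7 members after rescaling, against 10.0%. In W/F it was lower for 8 members, by -1.21 for Ifit1 to -2.25 for Ifit2, against 53.2% of all genes, and for 4 after rescaling, against 24.0%. Bst2 was the member not called in both, at -0.58 (adjusted p = 0.147) in F/F and -0.52 (adjusted p = 0.139) in W/F. These differences share the W/W mice, and they include the gap that already existed on vehicle. With T0901317, F/F exceeded W/W for Isg15 (0.74), Usp18 (0.71) and Oasl2 (1.29), against 56.3% of all genes called higher, and after rescaling for Oasl2 alone (0.85), against 24.2%. Bst2 was then lower in F/F by -0.72, where 6.96% of all genes were called lower, and by -1.25 after rescaling, where 22.7% were. F/F exceeded W/F with T0901317 for Ifit2 (0.82), Usp18 (1.03) and Oasl2 (1.34), against 58.5% of all genes. After rescaling Usp18 (0.53) and Oasl2 (0.90) were higher, against 21.5%, and Bst2 was lower by -0.58, against 18.9%, with a median member of 0.06. The groups overlapped for every member in both scalings, where 46.4% of all genes as deposited did not overlap and were higher in F/F. Without W/F T0901317 replicate 2, 8 members were called higher as deposited and 3 after rescaling, and the share of all genes called without that mouse was not counted.

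**Figure D3:**
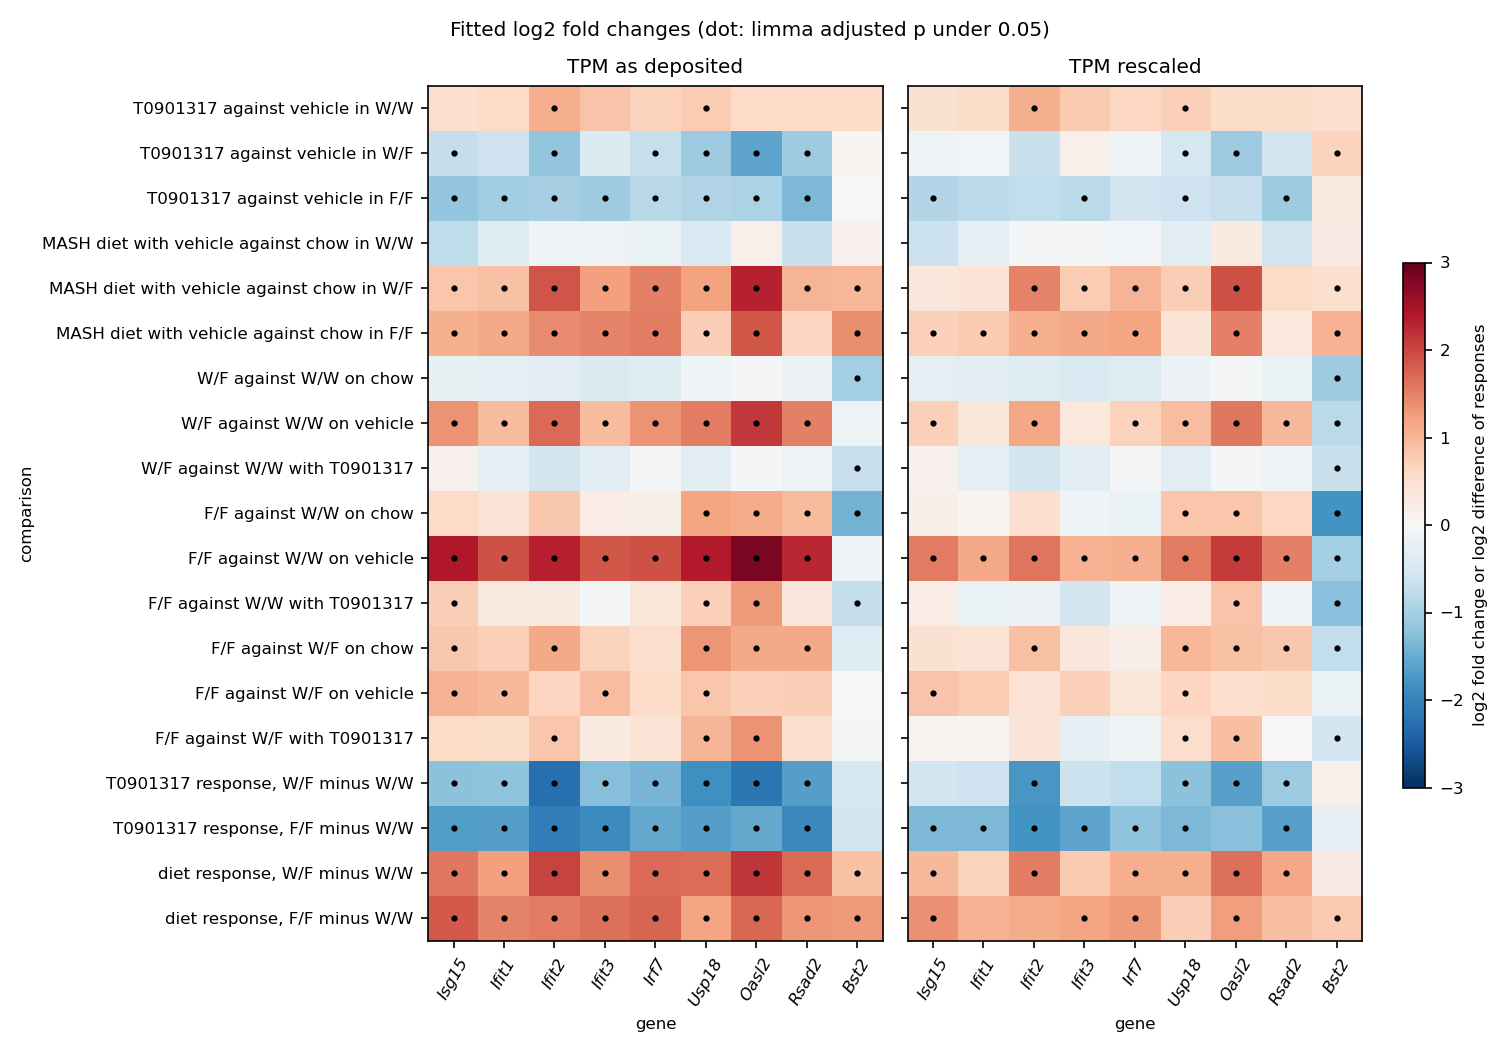
Fitted log2 differences of the 9 genes (columns) in 19 comparisons (rows), as deposited on the left and after rescaling to the median gene on the right, where colour gives direction and size and a dot marks an adjusted p under 0.05 (limma). Most columns share a pattern of higher values in mutants on vehicle and lower values with T0901317 in F/F, and the Bst2 column differs from it.

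Seen as an order of groups, F/F vehicle had the highest mean for 8 of 9 genes and W/W T0901317 for Bst2. The lowest mean was in W/W vehicle for Isg15, Ifit1, Usp18 and Rsad2, in W/F chow for Ifit2, Ifit3, Irf7 and Oasl2, and in F/F chow for Bst2. The ratio of the top to the bottom mean was 13.6 for Oasl2, 8.89 for Ifit2, 6.15 for Rsad2, 5.99 for Isg15, 5.77 for Usp18, 5.07 for Ifit3, 4.86 for Irf7, 4.39 for Ifit1 and 4.29 for Bst2. W/F vehicle came next after F/F vehicle for 6 genes, while for Usp18 and Rsad2 F/F chow lay between them. Most neighbours in these orders overlapped. F/F vehicle stood clear of the next group for Isg15, Ifit1, Ifit3 and Usp18, and W/W T0901317 stood clear of W/W vehicle for Bst2.

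The members varied together across the 36 libraries, apart from Bst2. Over libraries that share groups, Pearson's r of each gene with the mean of the 9 members, itself included, was 0.966 for Ifit2, 0.963 for Irf7, 0.961 for Ifit3, 0.950 for Oasl2, 0.940 for Ifit1, 0.909 for Isg15, 0.908 for Usp18 and 0.843 for Rsad2, and 0.330 for Bst2. When each library was taken as its deviation from its group mean, r for Bst2 was 0.826 and for the others 0.745 to 0.949. Pooled over all groups, Bst2 thus varied with the rest within groups and much less across groups. W/F T0901317 replicate 2 and F/F vehicle replicate 2 had the largest mean scaled deviations of the members, 3.09 and 2.05. They weigh heavily in these r, and the r without them was not tested. The genes most like the mean of the members over the 36 libraries, by r of levels, were Ifi44 (0.976), Xaf1 (0.949), Slfn8 (0.948), Slfn1 (0.947), Ifi206 (0.944), Mnda (0.943), Plac8 (0.943), Ifit3b (0.943), Oas1g (0.941) and Rtp4 (0.941). Ifi44, the closest, was at 1.01 ± 0.208 TPM in W/W vehicle, 4.12 ± 1.26 TPM in W/F vehicle and 8.38 ± 5.62 TPM in F/F vehicle (SD, n = 4 each).

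Further genes of the pathway were counted from lists. Of 49 other type I interferon-stimulated genes tested, 46 were called higher and 1 lower in F/F than in W/W on vehicle, where 69.3% of all genes were higher, and 34 and 4 after rescaling, where 31.0% were higher and 28.1% lower. The 1 was Gm4951, and the 4 were Gm4951, Parp9, Dtx3l and Lgals9. Their median difference was 1.59, where that of all genes was 0.70, and 0.81 against 0.03 after rescaling. The most abundant of them did less than the members. Ifitm3 (a mean of 932 TPM for W/W and 1464 TPM for F/F on vehicle), a membrane protein that blocks virus entry, was higher by 0.64 as deposited and at -0.23 after rescaling, without a call. Ifitm2 was higher by 1.08 and stood at 0.21 after rescaling, not called. Lgals9, a galectin, stood at 0.17, not called, and was lower by -0.70 after rescaling. Ifi27 was higher by 1.42 and by 0.55 after rescaling. In W/F on vehicle the counts were 45 higher and 0 lower, against 61.6% of all genes higher, and 29 and 4 after rescaling, against 27.6% and 25.5%. With T0901317, 4 of the 49 were higher in W/W (Ifi27l2a, Parp9, Lgals3bp and Lgals9), a share near the 7.87% of all genes, and 5 after rescaling (Ifi27l2a, Parp9, Lgals3bp, Trim25 and Isg20). In F/F 26 were lower, against 31.2% of all genes, and 4 after rescaling (Oas1a, Ifitm1, Isg20 and Ch25h), a share near the 7.98% of all genes. In W/F 41 were lower, against 59.3%, and 21 lower and 6 higher after rescaling, against 27.1% and 23.6%. The diet gave 0 higher and 6 lower in W/W, 40 and 1 in W/F and 35 and 1 in F/F, with Gm4951 the 1 lower in both mutants. Of all genes 2.59% and 10.3%, 52.4% and 8.53%, and 46.5% and 9.27% were called in these directions. After rescaling the counts were 0 and 5, 29 and 6, and 23 and 7, against 6.98% and 8.44% of all genes in W/W, 27.9% higher and 54.9% called in either direction in W/F, and 25.7% and 21.3% in F/F.

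Of the 30 interferon-gamma-linked genes, 19 were higher in F/F than in W/W on vehicle, with a median of 0.96 where that of all genes was 0.70, and 7 were higher and 3 lower after rescaling, at medians of 0.22 and 0.03. These counts of higher genes are below the background, where 69.3% of all genes, and 31.0% after rescaling, were called higher. The 3 lower were Iigp1, an interferon-inducible GTPase, at -1.05, H2-K1, a class I molecule, at -0.63, and B2m, its light chain, at -0.34. As deposited B2m was higher, by 0.53, so its direction depends on the scaling. H2-D1, another class I molecule, was higher by 1.42, and by 0.56 after rescaling. None of the 30 was called by limma for T0901317 in W/W (0 had an unadjusted p under 0.05) or in F/F (3 had). Of all genes 7.87% were called higher and 2.91% lower in W/W, and 3.95% higher and 31.2% lower in F/F. In W/F 9 were lower as deposited, against 59.3% of all genes, and 7 were higher and 4 lower after rescaling, against 23.6% and 27.1%. On the diet 0 were called in W/W (4 had an unadjusted p under 0.05), where 2.59% of all genes were higher and 10.3% lower. In W/F 15 were higher and 1 lower, against 52.4% and 8.53% of all genes. In F/F 9 were higher and 1 lower, against 46.5% and 9.27%, and the 1 was Iigp1 in both.

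**Figure D4:**
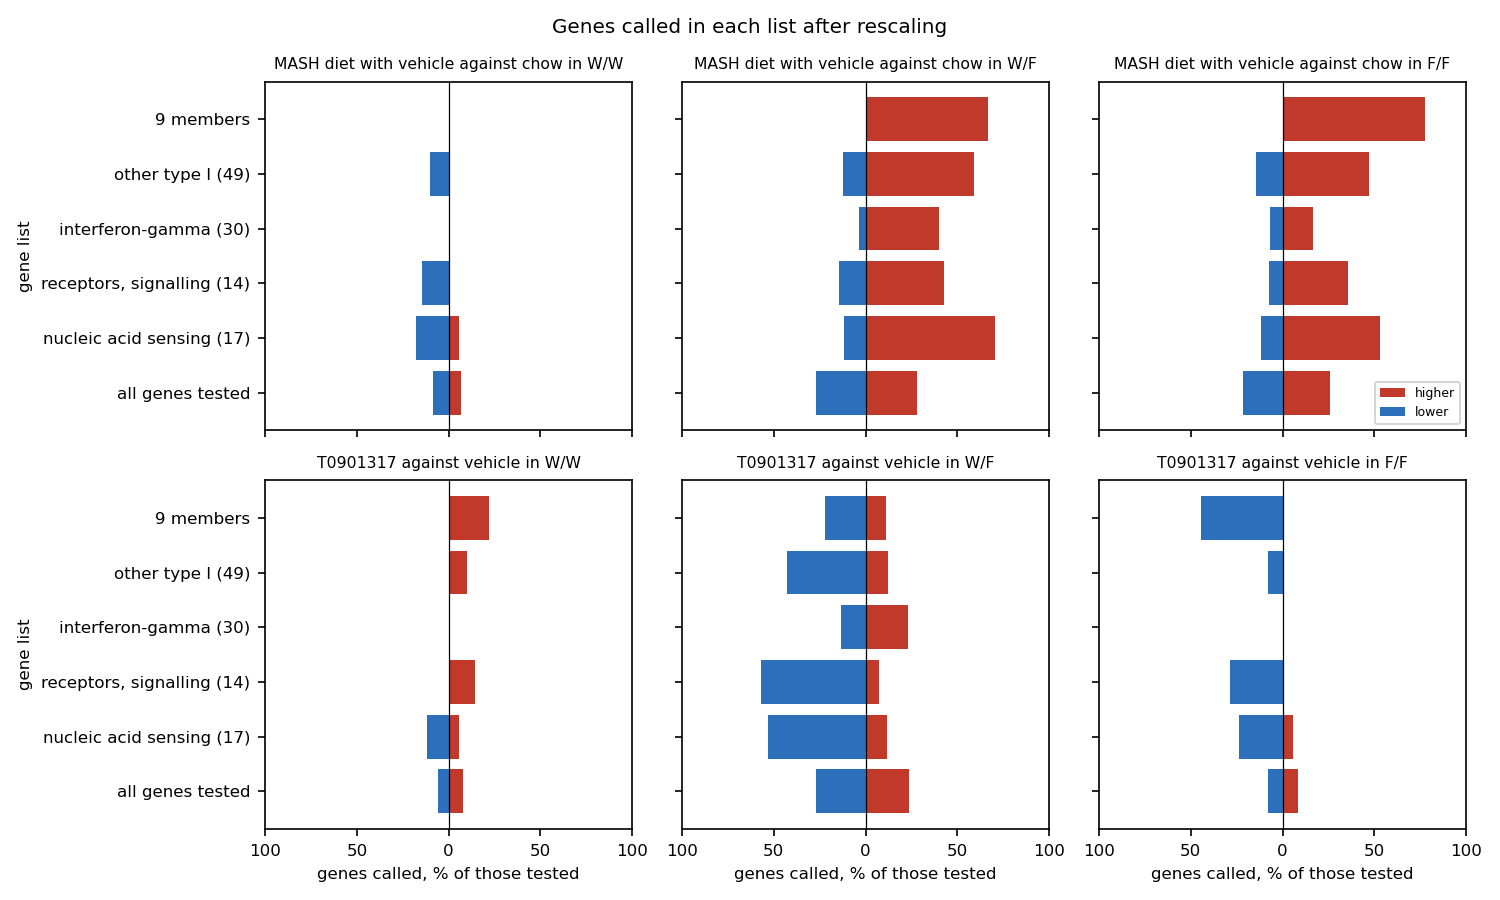
Share of genes called higher (right of 0) and lower (left of 0) by limma in rescaled values, in percent, for the 9 members, 4 lists of pathway genes and all 16638 genes tested, in the 3 diet and the 3 T0901317 comparisons. For the diet in W/F and F/F the members stand at 6 and 7 of 9 higher, against 27.9% and 25.7% of all genes, and for T0901317 in F/F at 4 of 9 lower, against 7.98%.

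Upstream of the members, the 14 genes of interferon receptors and signalling were all called higher in F/F than in W/W on vehicle, where 69.3% of all genes were, and 7 after rescaling, where 31.0% were. Ifngr1, the ligand-binding chain of the interferon-gamma receptor, rose from 12.9 to 90.3 TPM on average and by 2.72 (adjusted p = 4.36e-14), and by 1.89 after rescaling. Ifnar2 (0.72), Stat2 (0.88) and Jak1 (0.96) rose as deposited and stood at -0.13, 0.04 and 0.12 after rescaling, not called. On the diet 2 of the 14, Jak1 and Tyk2, fell in W/W, against 10.3% of all genes, while 10 rose in W/F and 7 in F/F, against 52.4% and 46.5%. Of the 14, 2 rose with T0901317 in W/W (Ifngr2 and Il10rb), against 7.87% of all genes, while 10 fell in F/F and 11 in W/F, against 31.2% and 59.3%. After rescaling 4 fell in F/F (Ifnar1, Ifngr1, Ifngr2 and Ifnlr1) and 8 fell in W/F, against 7.98% and 27.1%. Of 17 tested genes that sense nucleic acids upstream of interferon, 16 were higher in F/F than in W/W on vehicle, against 69.3% of all genes, and 10 were higher and 2 lower after rescaling, against 31.0% and 28.1%. Unc93b1, which carries the endosomal Toll-like receptors to their place, was higher by 2.07, and by 1.21 after rescaling. Mavs, the adaptor of the RNA sensors, stood at -0.12, not called, and was lower by -0.97 after rescaling. Irf3 was higher by 0.44 as deposited and lower by -0.41 after rescaling, and Tbk1 was higher by 0.96 and not called after rescaling (0.12). With T0901317 in F/F 9 of the 17 were lower as deposited, against 31.2% of all genes. After rescaling 4 were lower (Tlr7, Tlr9, Ddx58 and Irf5), against 7.98%, and Mavs was higher. In W/W, Mavs was higher with T0901317 as deposited and Irf5 was lower in both scalings. On the diet 3 of the 17 were lower in W/W (Ddx58, Ifih1 and Tbk1), against 10.3% of all genes, while 15 were higher in W/F and 13 in F/F, against 52.4% and 46.5%.

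The interferons themselves were near the limit of detection. Of 21 interferon genes in the table, 13 were at 0 in every library, and none passed the filter on low values. Ifnb1 had 1 recovered read in 1 library, and Ifnk at most 9 reads. Ifng was above 0 in 21 libraries, at 0.565 TPM or less in each except W/F T0901317 replicate 2. Interferon transcripts at these levels could not be compared between groups at this depth.

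Cell type markers moved in the same comparisons, and in whole liver more cells of a type and more RNA per cell cannot be told apart. The 8 monocyte and macrophage markers on vehicle had sums of 89.2 to 222 TPM for W/W, 2514 to 3339 TPM for W/F and 3143 to 4092 TPM for F/F, and of 1209 to 1971 TPM in F/F with T0901317. The 7 neutrophil markers summed to 3.30 to 7.35, 77.5 to 146 and 150 to 443 TPM in the 3 vehicle groups. The 6 stellate cell markers summed to 89.3 to 137, 477 to 635 and 784 to 956 TPM. Of these, Lrat (means of 5.21, 16.4 and 7.17 TPM) and Reln (2.38, 6.95 and 5.90 TPM) were lower in F/F than in W/F, although the sum was higher. The 6 Kupffer cell markers went another way, with 182 to 226 TPM in W/W vehicle, 295 to 427 TPM in W/F and 4.68 to 6.47 TPM in F/F, and 147 to 244 TPM in F/F with T0901317. The higher W/F sum came mainly from Cd5l, with means of 80.5 TPM in W/W vehicle and 263 TPM in W/F, and Vsig4 (23.9 and 34.0 TPM), while Clec4f (72.3 and 45.0 TPM), Timd4 (6.15 and 0.788 TPM) and Folr2 (6.60 and 5.44 TPM) had lower means in W/F. The 5 markers of plasmacytoid dendritic cells, a cell type that makes much type I interferon, had low sums on vehicle. These were 0.288 to 3.60 TPM for W/W, 3.64 to 4.23 TPM for W/F and 5.36 to 9.59 TPM for F/F. The step between the mutants came mainly from Cox6a2, with vehicle means of 1.04 TPM (W/F) and 3.83 TPM (F/F). Klk1 rose less, with means of 0.501 and 0.892 TPM. Siglech (1.89 and 2.08 TPM), Ccr9 (0.318 and 0.327 TPM) and Pacsin1 (0.225 and 0.225 TPM) differed little between the mutants. The lymphocyte sums were also low, with T and NK markers at 4.38 to 10.6 TPM in W/W vehicle and 9.40 to 14.2 TPM in F/F, and B cell markers at 2.04 to 5.17 and 5.57 to 8.50 TPM. Sinusoidal endothelial markers summed to 62.8 to 74.6 TPM in W/W vehicle and 82.2 to 127 TPM in F/F. Of these Fcgr2b (13.2 and 34.9 TPM on average) and Lyve1 (6.27 and 22.0 TPM) had higher means in F/F, and Clec4g, the most abundant, a lower one (33.4 and 24.3 TPM). The 6 hepatocyte markers, which are high in every library as the tissue label has it, summed to 73711 to 95634 TPM in W/W vehicle and to 34241 to 39034 TPM in F/F. The markers at 0 in a whole group were Ly6g in W/W chow, W/F chow and W/F T0901317, Mpo in W/F chow and F/F chow, and Ncr1 in W/F chow. The part of these cells in the levels of the 9 genes was not tested. On chow the monocyte and macrophage markers summed to 66.2 to 97.3 TPM in W/W and 450 to 724 TPM in F/F, and the Kupffer cell markers to 108 to 161 and 13.9 to 26.1 TPM. In that comparison 3 of 9 members (Usp18, Oasl2 and Rsad2) were called higher in F/F as deposited, against 43.0% of all genes. After rescaling 2 were (Usp18 and Oasl2), against 15.9%.

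**Figure D5:**
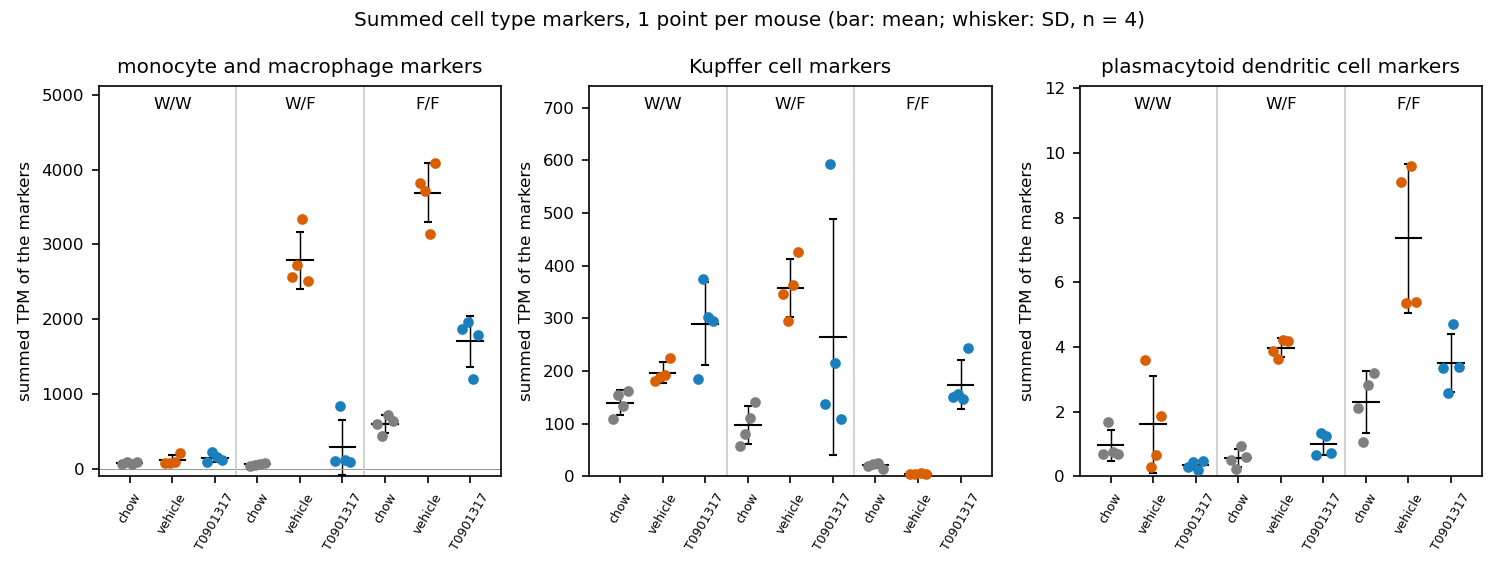
Summed TPM (y, linear axis from 0) of 8 monocyte and macrophage, 6 Kupffer cell and 5 plasmacytoid dendritic cell markers in each mouse, by genotype and treatment, with points as mice. Monocyte and macrophage sums are highest in the mutants on vehicle, at 2514 to 4092 TPM, and Kupffer sums are lowest in F/F vehicle, at 4.68 to 6.47 TPM.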

How the data were processed

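Per the submitters' processing notes, Trimmomatic 0.36, STAR 2.5.2b, featureCounts and Subread 1.5.2 were used with GRCm38/mm10; their settings, strand handling and annotation are not given in the sources used here. The authors deposited 1 table of TPM for 36 liver libraries. All 36 were fitted together with limma 3.58.1 in R 4.3.3 on log2(TPM + 1), with 1 mean per group and a trended variance, in 19 two-sided contrasts; the 16638 genes tested reached 1 TPM in 4 or more libraries. Symbols were missing for 174 genes. Rescaled TPM were divided by median-of-ratios factors (0.6927 to 1.478) from 14786 genes above 0 everywhere. Depth was recovered from low TPM and exon lengths (GENCODE M21, 49056 IDs matched and 259 not): 93.7% to 95.7% of genes under 20 reads lay within 0.1 of a whole read, where chance gives 20%. The fit was tested on simulated data.

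The members, lists and tests were chosen with earlier results of these data known. Named were all members, up to 4 genes of highest mean TPM per list, genes that set a count of 5 or fewer, and the 10 genes most like the members; Ifng, Cxcl9 and others given as chosen after their values were seen are exceptions, and 1 of the 10 most alike within groups is not reported here. Alternatives were a pseudocount of 0.1, a filter of 5 TPM, no filter, rescaling, the replicate number as a block, array weights, fitting only the libraries compared, and leaving out each library. Replicate numbers did not pair the samples. The labels give no batch.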

Additional observations from a re-analysis of the deposited data

Results flagged for a closer look

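In 18 of the 81 groups of 4 mice (9 genes in 9 groups), 1 mouse lay further from the rest than Dixon's 95% limit allows. For a single group with normal spread, chance gives about 1 in 20. The 9 genes were read in the same mice and varied together, so the 81 groups are not independent. The count of 18 therefore cannot be set against that rate. Of the 18, 7 were in F/F vehicle replicate 2: Isg15 at 159 TPM, Ifit1 at 40.3, Ifit2 at 26.0, Ifit3 at 89.3, Irf7 at 136, Oasl2 at 37.8 and Bst2 at 599 TPM. Another 7 were in W/F T0901317 replicate 2: Isg15 at 59.2 TPM, Ifit1 at 16.2, Ifit2 at 13.9, Ifit3 at 50.2, Irf7 at 62.2, Usp18 at 23.3 and Oasl2 at 11.1 TPM. The others were Ifit1 in F/F T0901317 replicate 1 at 18.6 TPM, Rsad2 in W/W chow replicate 1 at 4.79 TPM, the lowest of its group, Bst2 in W/W chow replicate 3 at 470.05 TPM and Bst2 in F/F chow replicate 2 at 103.7 TPM, the lowest of its group. The cell type markers of the first 2 libraries are given with the results, and their part was not tested.

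Responses called as different between genotypes as deposited, by the test of the difference itself (limma, adjusted over all genes), were as follows. For T0901317 in W/F against W/W the log2 differences were -1.23 for Isg15, -1.21 for Ifit1, -2.25 for Ifit2, -1.27 for Ifit3, -1.39 for Irf7, -1.85 for Usp18, -2.17 for Oasl2 and -1.66 for Rsad2. For T0901317 in F/F against W/W they were -1.67 for Isg15, -1.65 for Ifit1, -2.07 for Ifit2, -1.92 for Ifit3, -1.53 for Irf7, -1.66 for Usp18, -1.54 for Oasl2 and -1.93 for Rsad2. For the diet in W/F against W/W they were 1.58 for Isg15, 1.23 for Ifit1, 2.03 for Ifit2, 1.39 for Ifit3, 1.70 for Irf7, 1.67 for Usp18, 2.15 for Oasl2, 1.69 for Rsad2 and 0.87 for Bst2. For the diet in F/F against W/W they were 1.83 for Isg15, 1.499 for Ifit1, 1.54 for Ifit2, 1.64 for Ifit3, 1.74 for Irf7, 1.19 for Usp18, 1.71 for Oasl2, 1.31 for Rsad2 and 1.28 for Bst2. Each includes the W/W vehicle mice, so a low value there moves all 4 sets. Of all genes 53.2%, 27.2%, 49.5% and 41.5% were called in the directions of the 4 sets, in the order given. After rescaling 4, 7, 6 and 5 members were called, against 24.0%, 10.0%, 21.0% and 14.5% of all genes.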

How the results depend on the processing

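Of the 105 values of single members called as deposited, none changed direction under any alternative, while 33 lost the call after rescaling, 10 without the filter, 9 when only the libraries compared were fitted, 1 with a pseudocount of 0.1, and 0 with the 5 TPM filter, array weights or the replicate block. The numbers of members called for T0901317 were, in W/W, 0 without the filter, 5 with array weights and 4 with only the libraries compared. In W/F they were 3 after rescaling and 3 with only the libraries compared, and in F/F 4 after rescaling. Between W/F and W/W with T0901317 they were 0 without the filter, 3 with weights and 0 with only the libraries compared, and on chow 0 with only the libraries compared. Rescaling gave 2 between F/F and W/W with T0901317, 2 between F/F and W/F on vehicle, 4 for the W/F T0901317 response and 5 for the F/F diet response. Weights gave 8 between F/F and W/F on chow and 8 with T0901317. Chosen after seeing the data, rescaling without F/F vehicle replicate 2 gave 1 for T0901317 in F/F, 5 for the diet in F/F, 0 between F/F and W/F on vehicle, 4 for the F/F T0901317 response and 2 for the F/F diet response. Rescaling without W/F T0901317 replicate 2 gave 4 between W/F and W/W with T0901317. The cause of these changes was not tested. Among the alternatives, the share of all genes called was counted only for rescaling with every library kept, so the other counts here and below have no background beside them.

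Leaving out 1 library at a time gave, for T0901317, 0 to 2 in wild-type (W/W), 4 to 8 in heterozygous (W/F) and 3 to 8 in homozygous (F/F) mice, with 5 in F/F without T0901317 replicate 3 or replicate 4. It gave 0 to 1 between W/F and W/W on chow, 0 to 3 with T0901317, 0 to 5 between F/F and W/F on vehicle (2 without W/F vehicle replicate 1 or 4) and 2 to 8 with T0901317. Over the 105 called values, 23 lost the call at 1 or more omissions, and F/F vehicle replicate 2 ended most, 10. Among values not called, Ifit3 with T0901317 in W/F became 0.15 after rescaling, and the Bst2 difference of T0901317 responses in W/F became 0.15. Bst2 with T0901317 in W/F ranged from -0.20 to 0.22 over omissions. In F/F it ranged from -0.13 to 0.22, and was 0.27 after rescaling, 0.066 with weights and 0.48 after rescaling without F/F vehicle replicate 2.

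Replicate numbers are shared across groups but did not pair the mice: deviations of same-numbered libraries correlated at a median of 0.0131 (-0.174 to 0.297 over 144 pairs), and 11 of 36 libraries correlated best with their own number. With the replicate number as a block, the numbers called for T0901317 were 2, 6 and 8 for W/W, W/F and F/F, and no other number moved by over 1.5 times. Depth limits Ifit2 and Oasl2 most, at 42 and 50 reads in their lowest libraries, and the interferon genes could not be tested.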

Other observations

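Several genes of the wider pathway went against the members. Gm4951, a gene of the interferon-inducible GTPase family, was lower on the diet by -1.17 in W/F and -1.07 in F/F, and also in W/W mice, by -0.69, while 40 of the 49 genes of its list were higher in W/F and 35 in F/F, with 0 for W/W. Iigp1, of the same family, was lower on the diet by -0.81 in W/F and -1.24 in F/F, and after rescaling by -1.31 and -1.59, and in W/W it stood at -0.62, not called (adjusted p = 0.129, limma). Irf5, a transcription factor of the sensing pathways, was lower with T0901317 in W/W by -1.23, and by -1.32 after rescaling, in the genotype in which Ifit2 and Usp18 were higher.

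Within groups, genes among those that varied most like the members from mouse to mouse, by r of deviations from the group mean over 36 libraries, were Ifi44 (0.944), Xaf1 (0.916), Slfn5 (0.914), Rnf213 (0.913), Slfn1 (0.912), Slfn8 (0.909), Ifi204 (0.906), Oas1g (0.906) and Mnda (0.904). Of these, Ifi44, Xaf1, Slfn1, Slfn8, Oas1g and Mnda were also among the 10 most alike in level. The libraries F/F vehicle replicate 2 and W/F T0901317 replicate 2 weigh heavily in these values. Oas1g, an oligoadenylate synthetase, was at 9.57, 32.5, 10.3 and 11.1 TPM in F/F vehicle and 0.983, 5.77, 1.94 and 0.691 TPM in W/F T0901317, with replicate 2 the highest in each.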
